A study of Homo sapiens with 5 samples.

Results

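The H3K27ac peaks around BATF2, PNPT1 and TPD52 were described in HCT116 cells with and without interferon-beta (IFN-β). These 3 genes were selected because a peak beside each was among the most increased of the table, so the differences between groups at those peaks are a description and carry no test. A peak belonged to a locus when its center lay within 50 kb of a transcription start site (TSS) of the gene in GENCODE release 44 on GRCh38. By this rule 10 of the 20087 peaks of the table were members, 5 at BATF2, 2 at PNPT1 and 3 at TPD52.

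HCT116 is a human colorectal carcinoma line, and the HCT116 CMV-osTIR1 RAD21-mAC derivative used here carries a degron tag on the cohesin subunit RAD21 and the plant F-box protein that recognises such tags, driven by a viral promoter. Cells of every library received 0.1% DMSO for 6 h. The IFN-β group (2 libraries) then received IFN-β at 1000 unit/ml and was fixed 1 h later, and the control group (2 libraries) was not treated further. Its libraries are labelled with minute 0 and the IFN-β libraries with minute 60, so IFN-β and a possible extra 1 h in culture cannot be told apart. An input library (n = 1) was used by the authors when peaks were defined, and the paper states that its coverage was also controlled for with DiffBind. Each ChIP was made from 500000 cells fixed in 1% formaldehyde. The labels do not say whether the libraries of a group came from separate cultures.

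For each peak, the deposited table gives the log2 of mean normalized reads (here log2 signal) per group, with no value per library, so the spread between replicates could not be measured. The difference is the IFN-β value minus the control value. The only error given below is a 95% counting interval, an exact binomial interval on the approximate number of reads behind the group values. It covers counting error and not the variation between cultures. It also leaves out the authors' control for input, after which the read numbers may differ from the reads sequenced. Of 9 epithelial marker genes, 7 had a peak within 1 kb of a TSS, with control log2 signals of 4.48 to 7.10. CDX1 and VIL1 had none. Of 5 blood markers 0 had such a peak, and of 3 fibroblast markers only COL1A1 did (control log2 signal of 5.24).

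H3K27ac, the acetylation of lysine on histone H3, marks active promoters and enhancers. IFN-β binds the IFNAR receptor and activates the kinases JAK1 and TYK2, and the transcription factor complex ISGF3, of which IRF9 is the DNA-binding subunit, then binds the interferon-stimulated response element (ISRE). An ISRE holds a pair of GAAA elements separated by a short spacer. BATF2 encodes a basic leucine zipper protein of the BATF family, which pairs with JUN proteins, and is known as an interferon-inducible gene. PNPT1 encodes polynucleotide phosphorylase, an exoribonuclease of mitochondria with roles in RNA import and turnover there, and is also interferon-inducible. TPD52 encodes tumor protein D52, a coiled-coil protein linked to vesicle traffic and often overexpressed in carcinomas.

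The ISRE core was searched as GAAANNGAAA on both strands within 500 bp of each peak center. The sequences below, from the reference genome, hold matches in the highest peaks of the BATF2 and PNPT1 loci. They are written 5′ to 3′ on the strand of the gene, which is the minus strand for both, and capitals mark the match. BATF2 upstream is chr11:64997602-64997691. PNPT1 intron is chr2:55693457-55693586, where the core lies on the strand opposite to the gene and so reads as its reverse complement.
BATF2 upstream: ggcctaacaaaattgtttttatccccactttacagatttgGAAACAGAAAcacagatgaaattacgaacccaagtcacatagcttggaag
PNPT1 intron: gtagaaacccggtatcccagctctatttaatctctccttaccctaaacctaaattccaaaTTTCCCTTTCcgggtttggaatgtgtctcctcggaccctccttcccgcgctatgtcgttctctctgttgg

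The BATF2 core shown, 1 of 2 in its peak, was GAAACAGAAA at chr11:64997642-64997651 and lay 624 bp upstream of the outermost start. The PNPT1 core, GAAAGGGAAA at chr2:55693517-55693526, lay in an intron, 297 bp downstream of the nearest PNPT1 start. The PNPT1 promoter, chr2:55693864-55694063, is shown on the gene strand because it holds the same GAAA elements with a spacer of 1 base instead of 2. This match, marked in capitals, lay 38 bp upstream of the outermost start, and the spelling GAAANGAAA was searched only after the promoter had been read.
PNPT1 promoter: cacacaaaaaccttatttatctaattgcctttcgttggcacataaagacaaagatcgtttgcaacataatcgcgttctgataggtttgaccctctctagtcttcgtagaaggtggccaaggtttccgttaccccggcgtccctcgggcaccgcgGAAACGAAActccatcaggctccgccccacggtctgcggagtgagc

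In every locus, 1 peak was higher after IFN-β and all the others were lower. The BATF2 promoter peak had a difference of 2.88 on the log2 scale, the PNPT1 promoter peak of 1.41, and a peak inside the TPD52 gene of 1.23. Of all peaks in the table, 5.93% had a difference above 0 and 0.363% had one above 1, whereas the median difference of all peaks was -0.69 (quartiles -0.92 and -0.43). The 3 members above 1 were chosen on this same contrast, so nothing is read from their count. The 7 remaining members had differences between -1.14 and -0.58 with a median of -0.77, close to that of the whole table. Each of their 7 counting intervals included -0.69 and lay below 0.

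**Figure D1:**
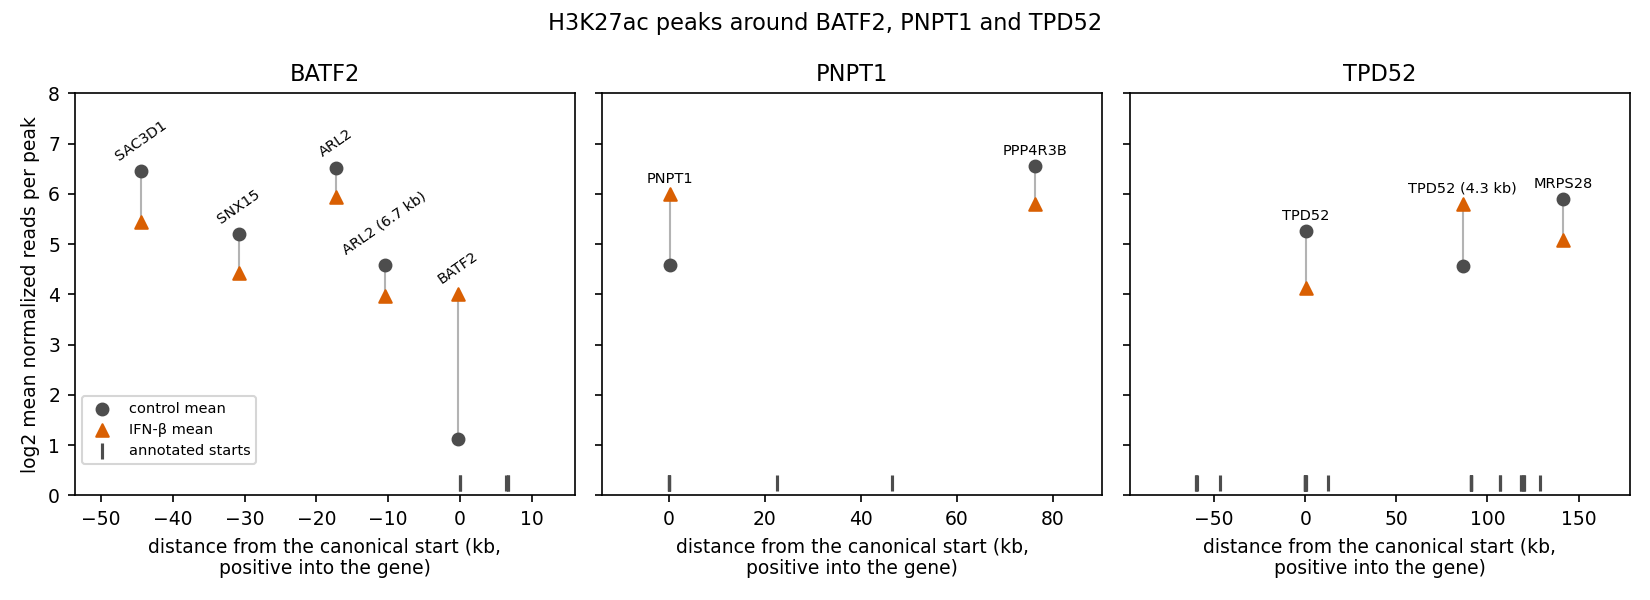
Log2 mean normalized reads of each peak (vertical axis) against the distance of its center from the canonical start of BATF2, PNPT1 or TPD52 (kb, horizontal axis), with control means as grey circles, IFN-β means as orange triangles and annotated starts as ticks. Labels give the nearest protein-coding start, with its distance where it is over 500 bp. In each panel 1 peak has the triangle above the circle, and the other 7 peaks have it below.

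BATF2 (ENSG00000168062.10) lies at chr11:64987945-64997018 on the minus strand and has 5 annotated starts. Its highest peak, chr11:64996734-64997734, was centered 216 bp upstream of the outermost start, in sequence outside any annotated gene. The log2 signal was 1.12 in the control and 4.00 after IFN-β, or 2.17 and 16.0 normalized reads. The control value was low for the table, since 2.73% of all peaks had a lower one, and the IFN-β value was below the median of 4.39. A difference of 2.88 is a 7.36-fold higher signal, but it rested on roughly 5 control reads against 48, and its counting interval ran from 1.56 to 4.57. It ranked 5th of all peaks by difference. The 4 peaks above it all had the control at the lowest value of the table (-0.17), so their differences were measured from that floor.

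The other 4 peaks of the BATF2 window lay at or near neighboring genes and all had higher control values than the BATF2 promoter, between 4.59 and 6.52. The ARL2 promoter peak, chr11:65013803-65014803, had 6.52 in the control and 5.94 after IFN-β, a difference of -0.58 (-0.87 to -0.29). ARL2 encodes a small GTPase of the ARF family. A peak upstream of ARL2 outside annotated genes, chr11:65006945-65007945, had 4.59 and 3.97 (-0.62, from -1.22 to -0.03), and it was the only peak between the promoters of BATF2 and ARL2. These 2 peaks became slightly positive, at 0.11 and 0.07, when the table median was subtracted. The peak at the start of SNX15, which encodes a sorting nexin, spanned chr11:65026999-65028641 and had 5.20 and 4.43 (-0.77, from -1.26 to -0.28). The peak at the start of SAC3D1, chr11:65040860-65041860, had 6.45 and 5.44 (-1.01, from -1.34 to -0.68). Its center lay 44342 bp from a BATF2 start and was the nearest to the 50 kb limit on the inside. The nearest outside, at PPP2R5B and 65894 bp away, had 4.87 and 4.35 (-0.52).

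PNPT1 (ENSG00000138035.15) lies at chr2:55634061-55693863 on the minus strand with 6 annotated starts. Its highest peak, chr2:55693223-55694223, was centered in coding sequence of an exon, 100 bp from the nearest start. The log2 signal was 4.58 in the control and 5.99 after IFN-β, or 23.9 and 63.6 normalized reads, a 2.66-fold higher signal with a counting interval of the difference from 0.97 to 1.87. This peak was already acetylated before stimulation, with 38.1% of peaks lower in the control, and afterwards 93.4% of peaks were lower. The only other peak, chr2:55616935-55617935, lay at the start of PPP4R3B, a regulatory subunit of protein phosphatase 4. It had 6.55 and 5.81 (-0.74, from -1.04 to -0.44). It belonged to the locus only through a retained-intron transcript of PNPT1 that starts 29947 bp away. The next peak outside the window, at CFAP36 and 128104 bp from a PNPT1 start, had 4.95 and 4.00 (-0.95).

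TPD52 (ENSG00000076554.16) lies at chr8:80034745-80231232 on the minus strand and has 26 annotated starts spread over the gene. Here the higher peak was not at the canonical promoter. It spanned chr8:80084259-80086034 in an intron of the long transcripts, 4315 bp upstream of the nearest start at 80080831, which belongs to a cluster of starts of shorter transcripts between 80080396 and 80080831. The log2 signal was 4.57 in the control and 5.80 after IFN-β, or 23.8 and 55.7 normalized reads, a 2.35-fold higher signal with an interval of the difference from 0.78 to 1.70. The peak at the starts of the long transcripts, chr8:80170872-80171872, was lower instead, with 5.26 in the control and 4.12 after IFN-β (-1.14, from -1.67 to -0.63). That was the lowest difference of the 10 peaks, and 9.50% of all peaks were lower. The peak at the start of MRPS28, which encodes a mitochondrial ribosomal protein, covered chr8:80029624-80030624 and had 5.89 and 5.09 (-0.80, from -1.19 to -0.42). It lay 12787 bp from the most downstream TPD52 start. No peak was centered within 59800 bp of the 3 most upstream TPD52 starts. The next peak outside the window was 247928 bp away, near HEY1, and had 3.34 and 3.62 (0.28, from -0.51 to 1.10).

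**Figure D2:**
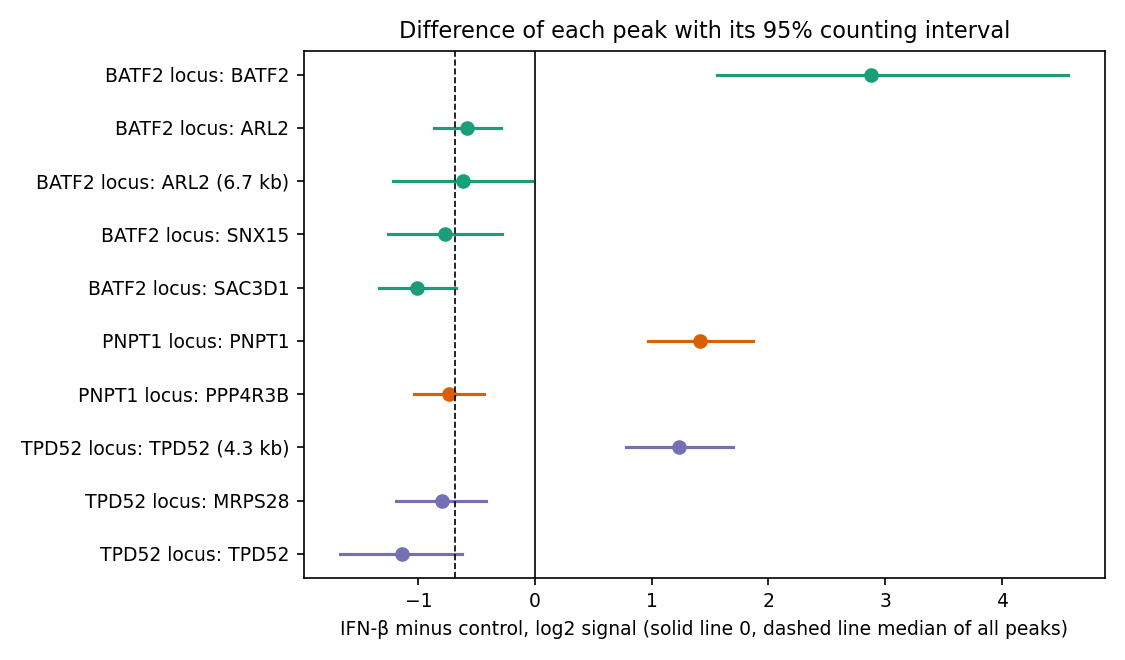
Difference between the IFN-β and control log2 signal (horizontal axis) of each of the 10 peaks, with bars for the 95% counting interval, colored by locus. The solid line is 0 and the dashed line the median of all peaks (-0.69). The BATF2, PNPT1 and intragenic TPD52 peaks lie above 0 with their whole intervals, and the other 7 intervals cross the dashed line.

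On the log2 scale, the starting level of the 3 higher peaks differed more than their level after IFN-β. In normalized reads it did not, with 2.17 to 23.9 in the control and 16.0 to 63.6 after IFN-β. The lowest start, at BATF2, rested on roughly 5 reads. The PNPT1 and TPD52 peaks had near-equal control values (4.58 and 4.57) and near-equal IFN-β values (5.99 and 5.80). Their counting intervals overlapped over most of their length. The BATF2 peak started lower, at 1.12, and reached 4.00, and the lower end of its interval (1.56) lay within the intervals of both other peaks (up to 1.87 and 1.70). The orders BATF2, PNPT1 and TPD52 by difference and by mean signal were therefore not the same, with mean log2 signals of 3.18, 5.45 and 5.31. When all peaks were divided by mean signal into 10 bins of equal size, each of the 3 had the highest difference of its bin, out of 2009, 2008 and 2009 peaks. Relative to the median of their own bin they were higher by 3.49, 2.13 and 1.94. The peaks were chosen on this same difference, so their place in the bins is a description.

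**Figure D3:**
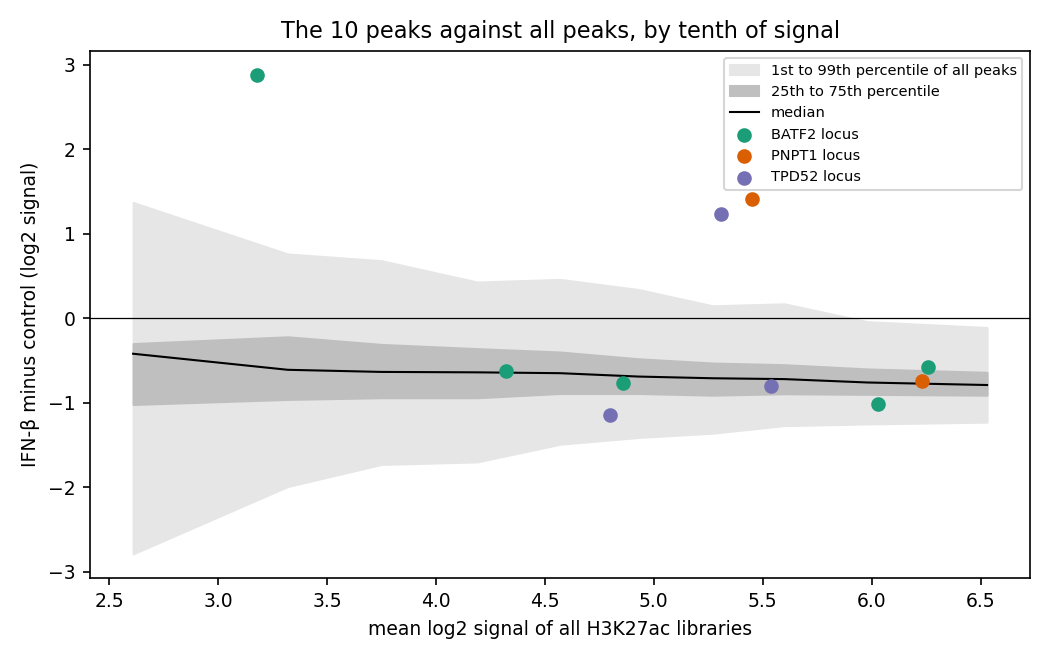
Difference between the IFN-β and control log2 signal (vertical axis) against mean log2 signal (horizontal axis) for the 10 peaks, with the median and percentile bands of all peaks in 10 bins of equal size. The bands narrow with signal, and the 3 higher peaks (2.88, 1.41 and 1.23) lie above the light band while the other 7 lie within it.

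The share of the acetylation signal of a window that lay in its highest peak is given as a description, since the peaks were chosen for being higher and a larger share after IFN-β follows from that choice. At PNPT1 this share was 20.3% in the control and 53.1% after IFN-β, and at TPD52 it was 19.6% and 52.0%. At BATF2 it was 0.897% and 10.1%. The summed normalized reads of the window were 242 in the control and 158 after IFN-β at BATF2, 118 and 120 at PNPT1, and 121 and 107 at TPD52. On the log2 scale these sums differed by -0.62, 0.02 and -0.18, against the median of -0.69 of all peaks. The BATF2 sum was thus close to that median, and the PNPT1 and TPD52 sums lay above it. Each sum includes the peak its locus was chosen on, so its place against the median is a description too. The remaining peaks had differences of -1.01 to -0.58 at BATF2, -0.74 at PNPT1, and -1.14 and -0.80 at TPD52.

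To see how common 1 higher peak per locus was, the same count was made for every protein-coding gene. Of 7625 genes with 3 or more peaks in the window, 15.5% had exactly 1 higher peak, 81.9% had none and 2.64% had more. Of 11303 genes with 2 or more peaks, as PNPT1 has, 13.2% had exactly 1. A single higher peak was thus not rare in itself, and windows of neighboring genes share peaks. The members stood apart by the gap between their highest and next peak, a measure that includes the contrast they were chosen on. This gap was 3.46 at BATF2, 2.15 at PNPT1 and 2.03 at TPD52, against a median of 0.23 over the 11303 genes. A gap at least as large was found at 5, 32 and 42 genes, respectively. All 5 genes counted for BATF2, itself included, had the BATF2 promoter peak as their highest. The gaps at PNPT1 and TPD52 depend on counting every annotated start. From the canonical start alone each of these 2 windows held 1 peak, so no gap could be taken.

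**Figure D4:**
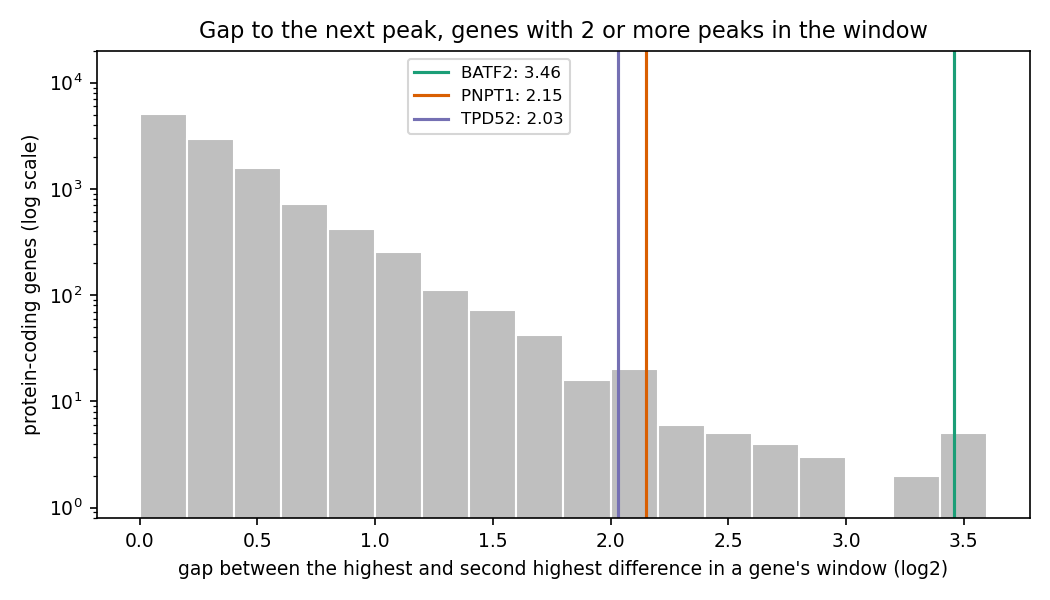
Number of protein-coding genes (vertical axis, log scale) by the gap in log2 difference between the highest and the next peak of the window (horizontal axis), for 11303 genes with 2 or more peaks. Lines mark BATF2 (3.46), PNPT1 (2.15) and TPD52 (2.03), all in the upper tail.

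Genes with a pattern most like that of the members were sought among genes with 3 or more peaks, exactly 1 of them higher and with a mean log2 signal of at least 4. TPD52 itself met this rule, whereas BATF2 (mean of 3.18) and PNPT1 (2 peaks) could not. The nearest were TJP1, with a gap of 2.03 and a highest difference of 1.09, IFI6 (1.94 and 1.94), ISG15 (1.77 and 1.30), PML (1.75 and 1.15) and IRF9 (1.69 and 1.29). The TJP1 peak lay 35007 bp from the nearest TJP1 start and held no ISRE core. IFI6, ISG15 and PML are known interferon-stimulated genes, and IRF9 belongs to ISGF3. Their peaks lay between 2 and 232 bp from a start, as the BATF2 and PNPT1 peaks did and the TPD52 peak did not. Those of IFI6 and ISG15 held 3 cores each, that of PML 1 and that of IRF9 0.

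Sequence was not part of the rule that chose the members. The genes and the motifs were however chosen with earlier results of these data known, so the counts below are a description. An ISRE core lay within 500 bp of the center in 3 of 3 higher peaks and in 0 of the 7 others, against 11.6% of all 20087 peaks. The BATF2 and TPD52 peaks held 2 each, a number reached by 1.72% of all peaks, and the PNPT1 peak held 1. Neither share was matched for GC content, which differed between the members and is given below. The wider TPD52 peak held 1 more core beyond the 500 bp. Its 3 cores lay at chr8:80084528-80084537, chr8:80084902-80084911 and chr8:80085152-80085161, all on the plus strand, and the last was 10 bp from the peak center. Most peaks with a core were not higher, as 11.1% of the 2337 peaks with a core and 5.26% of the 17750 without had a difference above 0. A nearby example was the CDCA5 promoter peak, 86885 bp from a BATF2 start, which held a core and had a difference of -0.97 (-1.26 to -0.68). Of the 73 peaks with a difference above 1, 24 (32.9%) held a core. Among these 73, 17 had a mean log2 signal of at least 4, the PNPT1 and TPD52 peaks included. A core lay in 10 of the 17.

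A core with 1 mismatch did not separate the peaks, being found in 3 of 3 higher and 5 of 7 other members and in 69.5% of all peaks. The GAS core TTCNNNGAA, the element known from the interferon-gamma response, was found in the PNPT1 peak only (TTCTACGAA at chr2:55693954-55693962, 91 bp upstream of the outermost start), and in 21.8% of all peaks. The AP-1 site TGANTCA, of the kind bound by JUN and FOS proteins, was absent from the 3 higher peaks within 500 bp and was found in 1 of the 7 others, upstream of ARL2, and in 33.4% of all peaks. GAAANGAAA occurred in 11.2% of all peaks and among the members only at PNPT1. The 3 higher peaks had a GC content of 53.4% (BATF2), 52.2% (PNPT1) and 38.7% (TPD52), and the 7 others of 49.7% to 73.7%. The median of all peaks was 58.1%. Of the 7 others, 6 were centered within 500 bp of a protein-coding start.

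**Figure D5:**
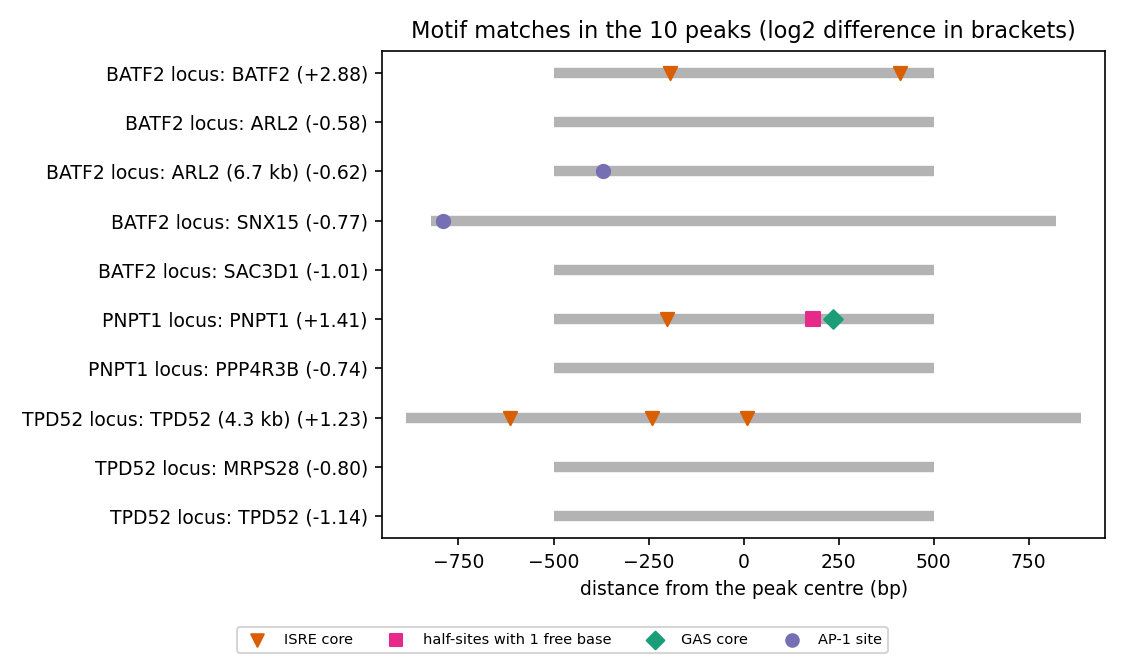
Positions of motif matches (symbols) relative to the center of each of the 10 peaks (bp, horizontal axis), with grey bars for the extent of the peak and the log2 difference in brackets. ISRE cores appear in the 3 higher peaks and in none of the 7 others.

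Relatives and partners of the members were read from the peak nearest to a TSS within 5 kb. Over all 12403 protein-coding genes with such a peak, 2.37% had a difference above 0 and the median was -0.76. Of 12 BATF and AP-1 genes, 10 had a peak, and only BATF2 was higher. The other 9 had a median of -0.58, from -0.98 at JUND to -0.03 at FOSB, and neither BATF nor BATF3 had a peak. Of 15 genes of mitochondrial RNA metabolism, all had a peak and only PNPT1 was higher. The other 14 had a median of -0.86, from -1.15 at REXO2, an oligoribonuclease, to -0.48 at TRMT10C, a subunit of mitochondrial RNase P. SUPV3L1, the helicase that works with PNPT1, had -0.72. Of the 6 genes of the TPD52 family and its partners 0 were higher, with a median of -0.90. TPD52 was the lowest of them, at -1.14, because the peak nearest to a start is that of the long transcripts, and the family member TPD52L2 was the highest at -0.79. In the pathway upstream, IRF9 was higher (1.29). The receptor genes IFNAR1 and IFNAR2 (-0.66 and -0.67) and the kinase genes JAK1 and TYK2 (-0.47 and -0.41) had differences below 0. Each of these lay above the median of -0.76 over all genes.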

How the data were processed

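H3K27ac ChIP-seq libraries were trimmed, aligned to GRCh38 and counted by the authors with fastp 0.19.3, Bowtie2, MACS2, DiffBind and DESeq2, per the submitters' processing notes. In the deposited table, every peak has a log2 signal for all libraries together and for each group of 2, which is the authors' mean of normalized reads on the log2 scale. Further columns hold the authors' fold change, p-value and FDR and were not used. Group means allow no test between libraries, and none was run.

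The 3 genes, the lists and the motifs were chosen with earlier results of these data known. Every peak in the windows was named by its nearest protein-coding start. Similar genes were ranked by the gap between the highest and the next difference, and of each list the extremes are named, with other genes added after their values were seen. Approximate reads were 2 libraries times the normalized reads divided by the lowest value of the group (0.664 for IFN-β and 0.889 for the control), taken as 1 read per library. Clopper-Pearson bounds on their split gave the 95% intervals. The calculations used scipy 1.17.1, pandas 2.3.3 and numpy 2.4.6 under Python 3.11.15 and were tested on simulated data. Figures were drawn with matplotlib 3.10.9. Some sequences and genes are not reported here. Alternatives changed the window, the transcripts, the centering, the signal minimum and the motif definition.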

Additional observations from a re-analysis of the deposited data

How the results depend on the processing

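Of 71 alternative values, 47 stayed within the limits set for them and 24 moved. The BATF2 window held 3 peaks at 25 kb and 9 at 100 kb, the PNPT1 window 1 at 25 kb or from coding or canonical starts, and the TPD52 window 1 from the canonical start. From that start TPD52 had 0 higher peaks, since its higher peak is 86.42 kb away. After subtracting the median of all peaks, of the GC bin or of the signal bin, the number of peaks above 0 at BATF2 was 3, 2 and 3, and with the signal bin it was 2 at PNPT1. With a limit of 0.5 after centering, chosen after seeing the data, every locus had 1. A minimum mean log2 signal of 4 left 0 at BATF2, and 7.96% of genes with exactly 1. Under the same centerings the highest difference was 2.10, 2.04 and 2.13 at PNPT1 and 1.92, 1.71 and 1.94 at TPD52. Within 250 bp the BATF2 peak held 1 ISRE core. The BATF2 core whose sequence is shown lay 412 bp from the peak center, outside that limit. With a spacer of 1 base the BATF2 and TPD52 peaks held 0. With 1 mismatch PNPT1 had 3 cores and TPD52 had 5.

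No paired analysis was possible because the table holds group means only, and for the same reason leaving out a library was not done. Depth limits the BATF2 control value most, at roughly 5 reads. The next control values above the lowest were 1.27 and 1.39 normalized reads, so a read was not worth the same in both libraries and read numbers are approximate.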
